A study of Drosophila melanogaster with 2 samples.

Results

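The genes described here are 9 core genes of small RNA silencing in Drosophila melanogaster, taken from 13945 protein-coding genes. The microRNA pathway is represented by AGO1, gw, Dcr-1, loqs, drosha and pasha, and the small interfering RNA (siRNA) pathway by AGO2, Dcr-2 and r2d2. Every deposited peak whose summit lay in the body of one of these genes or within 5 kb of it was collected, and each summit was placed against the annotated transcript starts. A gene was counted as bound at its own start where a summit lay within 500 bp of any of its starts.

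The peaks come from chromatin immunoprecipitation with sequencing (ChIP-seq) on whole larvae in the wandering phase of the third instar, males and females pooled, of 1 transgenic line that carries CG9705 fused at its C terminus to GFP. The design has 1 group with 2 biological replicates, so no condition was compared with another, and every result below is a position, a count or a rank. The labels conflict: the description field of both libraries says input control. Against that, the target given for the antibody is CG9705, the assay is a transcription factor ChIP-seq and a control experiment is listed apart, so the libraries were treated as ChIP. If the description were right, the summits would mark places enriched in sheared chromatin.

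In flies the microRNA pathway begins in the nucleus, where the RNase III enzyme Drosha and its partner Pasha cut hairpins out of primary transcripts. Dicer-1, with the double-stranded RNA-binding protein Loquacious, then trims the precursor to the mature duplex, and the loaded Argonaute AGO1 recruits the silencing factor GW182, encoded by gw, to its target messages. The siRNA pathway uses Dicer-2 with R2D2 to make and load duplexes from long double-stranded RNA, and AGO2 to cleave the target, and it is known for defence against viruses and transposons in somatic tissue. CG9705 itself has a cold-shock domain, a fold found in proteins that bind single-stranded RNA and DNA.

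Of the 9 genes, 4 had an optimal peak at their own start: AGO1, gw and drosha of the 6 microRNA genes, and r2d2 of the 3 siRNA genes. The optimal set is the 3533 peaks kept after the authors' test of agreement between the replicates (irreproducible discovery rate). These are also the 3533 peaks of highest score in the pooled list, so a member need not rank high in each replicate. In this set 19.1% of all protein-coding genes were bound at a start. With each summit counted only for the gene with the nearest start, 1 of the 9, gw, was bound, against 13.4% of all protein-coding genes, so the higher share holds only where a peak may count for several genes. In the relaxed pooled list of 30000 peaks, 8 of the 9 genes had a summit at their own start, all but Dcr-1, against 53.9% of all protein-coding genes. That list is labelled as peaks and background, so a summit in it need not mark binding. With the wider window of the gene body and 5 kb on each side, 7 of the 9 genes held an optimal summit, all but Dcr-1 and Dcr-2, against 43.9% of all genes. All 9 held a pooled summit in that window, against 82.4% of all genes. Taking the 3533 best peaks of each replicate by itself gave the same 4 bound genes in replicate 1 and in replicate 2. These shares are counts without a test, and with 6 and 3 genes they do not separate the pathways.

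Ranked by the authors' peak score, the order of the genes was the same in the pooled list and in both replicates, over the genes with a peak there. The best peak at an own start ranked 321 for r2d2, 593 for gw, 1529 for AGO1 and 3071 for drosha in the pooled list, inside the optimal set. Outside it followed Dcr-2 at 4899, AGO2 at 6576, loqs at 7052 and pasha at 18657, and Dcr-1 had none. Among the 2661 genes bound in the optimal set, r2d2 took place 289, gw place 521, AGO1 place 1274 and drosha place 2408. The lowest optimal score was 98.4. On the near side of that limit the weakest site in any of the 9 windows scored 106 (rank 3189, in the AGO1 window), and on the far side the next scored 96.7 (rank 3613, at the start of CG8728 in the drosha window).

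**Figure D1:**
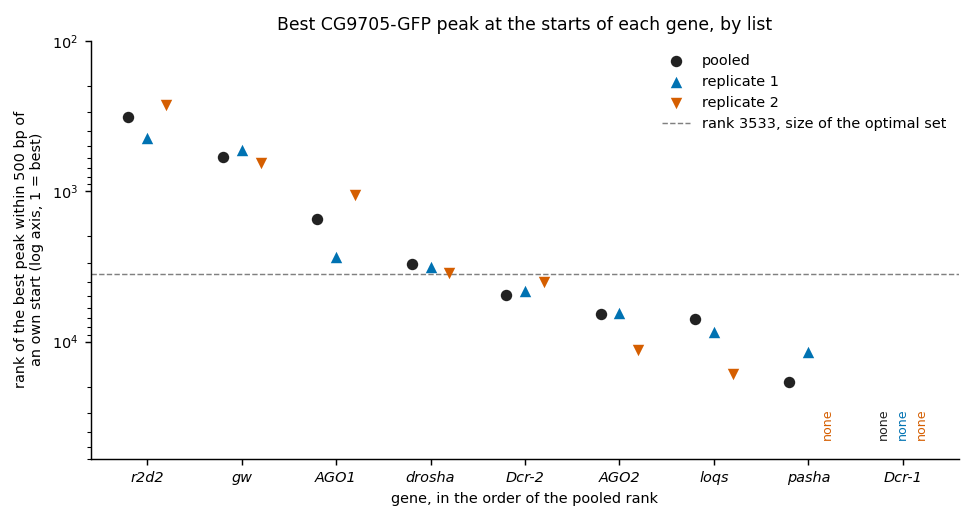
Rank of the best peak within 500 bp of an own transcript start (log axis, 1 is the highest score) for each gene in the pooled and single-replicate lists, with the size of the optimal set as a dashed line. The genes r2d2, gw, AGO1 and drosha sit above the line in all 3 lists, pasha has no such peak in replicate 2, and Dcr-1 has none in any list.

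Drosha, the nuclear nuclease that starts microRNA processing, is encoded by 1 annotated transcript at 2R:7932429-7936840 on the plus strand. Its peak summit lay 74 bp upstream of the start in the pooled list, with a score of 109. The summit was 90 bp upstream in replicate 1, at rank 3212, and 6 bp upstream in replicate 2, at rank 3485. The ranks of the replicates lay close to each other, and both fell just inside the 3533 best. This peak cannot be assigned to drosha alone: the gene rnh1, which encodes a ribonuclease H, starts 49 bp away on the opposite strand, and the summit lay 25 bp inside it.

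Pasha, the RNA-binding partner of Drosha, had the weakest peak of the genes with any. The gene lies at 3R:31617977-31622217 on the plus strand, with 3 annotated starts. The pooled summit lay 132 bp upstream of the first start, with a score of 28.0 and a −log10 q value of 0.363. In replicate 1 the summit was 104 bp upstream at rank 11711, and replicate 2 had no summit within 500 bp of any of the 3 starts. The strong site near pasha lay closer to the starts of its neighbours. This summit, 1802 bp upstream of pasha, ranked 306 in the pooled list, 346 in replicate 1 and 297 in replicate 2. It lay between Mnat9 and CG1792, at 15 bp and 128 bp upstream of their starts.

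Dcr-1, which makes mature microRNAs, and loqs, which encodes its partner, showed little or nothing at their own starts. Dcr-1 lies on chromosome 3R at 22734007 to 22741091 on the minus strand, with 1 start. No list had a summit within 500 bp of it. The window of Dcr-1 held 2 pooled summits, at ranks 15318 and 26634, both away from any start. The start of Dcr-1 lies head-to-head with that of CG6985, 59 bp apart, and there is no peak between or beside them. The loqs gene lies on 2L at 13382652 to 13385671 on the plus strand, and its 6 annotated transcripts share 1 start. The pooled summit lay 45 bp upstream of that start, with a score of 57.0. Replicate 1 had it 26 bp upstream at rank 8660, and replicate 2 had one 135 bp upstream at rank 16384. The rank in replicate 2 was more than 1.5 times the pooled one, so the rank of loqs depends on the library. Its order among the genes did not change. The sequences are shown on the strand of each gene, from dm6 coordinates in the RefSeq Release 6 genome: the Dcr-1 spacer because it is the head-to-head start without a peak, and the loqs stretch because it is the part of a weak summit's surroundings that lies before the transcript. Capitals mark the motif matches listed further on, the core of Motif 1 (GGTCACACT) in the Dcr-1 spacer and the reverse complement of the Zelda motif CAGGTA in loqs.
Dcr-1 to CG6985 spacer, chr3R:22741092-22741149, minus strand: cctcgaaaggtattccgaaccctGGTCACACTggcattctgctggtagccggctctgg
loqs upstream of the start, chr2L:13382557-13382651, plus strand: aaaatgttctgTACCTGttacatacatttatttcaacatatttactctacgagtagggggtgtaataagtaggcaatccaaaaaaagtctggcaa

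In the loqs window the high ranks again lay at other genes. A summit between CG7099 and Ing5, 4790 bp downstream of the loqs start, ranked 223 in the pooled list, 182 in replicate 1 and 293 in replicate 2. Another, 3886 bp upstream, ranked 1189 and lay 136 bp upstream of beta'COP, which encodes a coatomer subunit, and 228 bp upstream of CG9302.

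The gw gene encodes GW182, the effector that AGO1 brings to its targets, and it had the highest rank of the microRNA genes. It lies on chromosome 4 at 649041 to 660608 on the minus strand. Of its 2 annotated starts, the second is 625 bp into the gene and serves the transcripts gw-RA, gw-RE and gw-RF. The summit lay 117 bp upstream of this second start and so inside the gene, in an intron of gw-RB and gw-RJ. The pooled score was 334, in a peak 263 bp wide. The summit lay 140 bp upstream of the second start in replicate 1, at rank 529, and 154 bp upstream in replicate 2, at rank 652. Within 500 bp the first start had only a weak pooled summit, 150 bp upstream, at rank 8767. The strong pooled summit lay 508 bp downstream of the first start, just past that limit. In the replicates the strong summit fell within the limit, 485 bp downstream in replicate 1 and 471 bp downstream in replicate 2. No other gene starts nearby: the nearest opposite start upstream, that of Slip1, is 3013 bp away. Chromosome 4 held 11 optimal peaks in all, the gw peak was number 3 by score among them, and the gw window held 2 of the 11. The other one, at rank 2978, lay 185 bp upstream of CG46466 and 312 bp upstream of Slip1. The bases within 50 bp of the gw summit are shown because this is the one optimal peak that falls to one of the 9 genes alone. They hold none of the 7 motifs searched, and 27.7% of them are G or C.
gw summit, chr4:660050-660150, minus strand: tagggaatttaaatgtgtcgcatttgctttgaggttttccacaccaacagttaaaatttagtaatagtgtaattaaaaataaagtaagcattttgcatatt

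AGO1, the Argonaute loaded with microRNAs, had a pooled summit at each of its 3 annotated starts, of unequal rank. The gene lies at 2R:13943387-13958089 on the minus strand. At the third start, 4064 bp into the gene and used by AGO1-RB, the pooled summit was 117 bp upstream with a score of 185. Replicate 1 had it 85 bp upstream at rank 2751, and replicate 2 had it 146 bp upstream at rank 1058. Both replicates placed it inside their 3533 best, although the rank without replicate 2 was more than 1.5 times the pooled one. At the second start, that of AGO1-RA, the pooled summit lay 308 bp upstream at rank 4480, outside the optimal set. There replicate 1 had one 396 bp upstream at rank 4633, and replicate 2 had one 207 bp upstream at rank 3429, just inside its 3533 best. At the first start, that of AGO1-RC and AGO1-RD, the pooled summit lay 17 bp upstream at rank 20571, with a −log10 q value of 0.290. There replicate 1 had one 398 bp upstream at rank 7325, and replicate 2 had one 20 bp upstream at rank 9129, so both single replicates ranked this start higher than the pool. The optimal peak has opposite neighbours: CG33155 and mRpL53, which encodes a mitochondrial ribosomal protein, start 53 bp from the summit, and their start and that of AGO1-RB are 170 bp apart. A pair of summits 762 bp and 560 bp downstream of the first start had pooled ranks of 3924 and 4510. Elsewhere in the AGO1 window, optimal summits lay 145 bp upstream of shot (rank 1800), which encodes a cytoskeletal linker, and between Rpn13 and CtsL1 (rank 3189).

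Dcr-2, the enzyme that makes siRNAs, had a peak on its start, but not an optimal one. The gene lies at 2R:17574979-17581525 on the minus strand, with 1 start for its 2 transcripts. The pooled summit lay 4 bp downstream of that start with a score of 75.6. In replicate 1 the best summit was 231 bp downstream at rank 4620, and in replicate 2 it was 71 bp upstream at rank 4039. The replicates thus had like ranks but summits on opposite sides of the start, with a replicate 1 summit at rank 9974 as the one nearest to the pooled summit.

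AGO2, the Argonaute that cleaves siRNA targets, had no summit upstream of a start within 500 bp, only downstream ones. The gene lies at 3L:15554113-15561042 on the plus strand. The pooled list placed summits 263 bp and 494 bp downstream of the first start, at ranks 7959 and 6576. Replicate 1 had summits 226 bp and 489 bp downstream, at ranks 7377 and 6502. Replicate 2 had one 274 bp downstream at rank 11416 and another 523 bp downstream at rank 13196, just past the limit of 500 bp. Its best rank in replicate 2 was more than 1.5 times the pooled one. The second start, 2710 bp into the gene, had no summit in any list. The 1 optimal summit of the AGO2 window lay between CG7739 and SCCRO, past the end of the gene. It ranked 3153 in the pooled list, 8260 in replicate 1 and 2149 in replicate 2, so AGO2 counts as having an optimal summit in its window in replicate 2 and not in replicate 1.

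The gene r2d2, whose product hands siRNA duplexes to AGO2 together with Dicer-2, had the highest rank of the 9. It lies on 2L at 7800147 to 7802098 on the plus strand. The pooled summit lay 198 bp upstream of the first start, used by r2d2-RA and r2d2-RC, with a score of 459. Replicate 1 had it 187 bp upstream at rank 442, and replicate 2 had it 207 bp upstream at rank 268. Replicate 2 also had a weaker summit 8 bp upstream of the first start, at rank 10799. The second start, that of r2d2-RB, is 235 bp further on, which puts the pooled summit 433 bp upstream of it. Herp, which encodes a membrane protein of the endoplasmic reticulum, starts 89 bp away from r2d2 on the other strand. The summit lay beyond that start, within the 5′ UTR of a longer Herp transcript and 102 bp upstream of another Herp start, so the peak is nearer to Herp than to r2d2. The spacer between both genes is shown because it is the sequence they share as upstream DNA, and the peak's interval reaches into it as far as 7800120. The spacer holds none of the 7 motifs.
r2d2 to Herp spacer, chr2L:7800059-7800146, plus strand: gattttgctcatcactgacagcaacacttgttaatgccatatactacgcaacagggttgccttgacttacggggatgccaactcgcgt

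**Figure D2:**
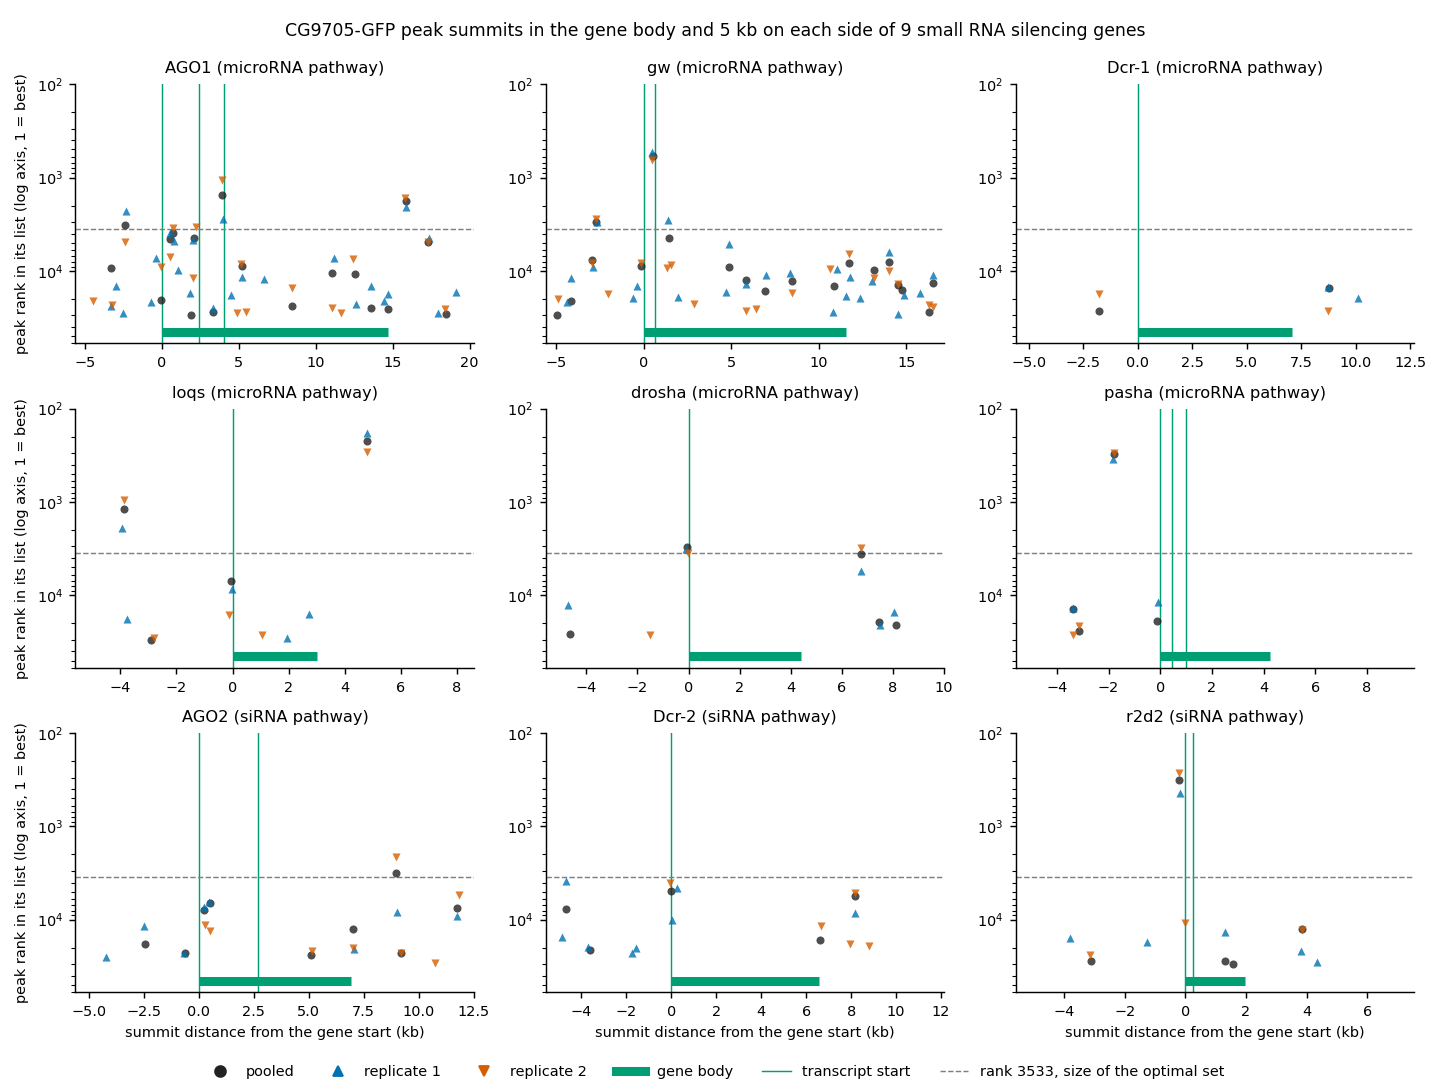
Summits of the pooled list and of each replicate in the body of each gene and 5 kb on each side, by rank (log axis, 1 is the highest score) and by distance from the gene start in kb, with transcript starts as vertical lines and the size of the optimal set as a dashed line. Pooled points above the dashed line lie at an own start in gw, AGO1, drosha and r2d2, with others away from the starts in AGO1 and gw, and only away from the gene's own starts in loqs, pasha and AGO2.

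Across the 9 windows the optimal summits were all at promoters, though mostly at those of neighbouring genes. The windows held 11 optimal summits, and 11 of 11 lay within 500 bp of a start of some gene, compared with 58.1% of all 3533 optimal summits. Windows built around genes hold starts by construction, and the share over the windows of all genes was not computed. Of these 11, 4 were at the start of one of the 9 genes and 7 only at starts of other genes. The best pooled peak of a window was at the gene's own start in 5 genes (r2d2, gw, AGO1, drosha and Dcr-2). It was at another gene's start in 3 (loqs, pasha and AGO2) and at no start in 1 (Dcr-1). Neither split was computed over the windows of all protein-coding genes, so both describe these windows only. Of all protein-coding genes, 43.9% held an optimal summit in the window and 19.1% had one at a start.

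Of the 4 bound genes, 3 had their peak at a promoter shared with another gene. Where each summit was counted only for the gene with the nearest start, gw alone of the 9 genes was bound, since mRpL53 and CG33155, rnh1 and Herp were nearer to the other summits. Over all protein-coding genes the same rule left 1862 bound, or 13.4%. These were 70% of the 2661 genes bound without that rule. The genes AGO1, drosha, r2d2 and Dcr-1 have a start head-to-head with a gene on the opposite strand, that is within 500 bp upstream, and 3 of these 4 were bound. The gw gene was the 1 bound gene of the other 5. Among all protein-coding genes, 39.2% of 4134 head-to-head genes and 10.6% of 9811 others were bound. Head-to-head genes made up 1622 (61%) of all 2661 bound genes, beside 3 of the 4 here. ChIP-seq of sheared fragments of 200 to 800 bp, the size range in the labels, cannot assign a summit to one of a pair of starts this close.

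The optimal summits lay upstream of the gene's own nearest start in all 4 bound genes, at 74 bp in drosha, 117 bp in gw, 117 bp in AGO1 and 198 bp in r2d2. Measured from the nearest start of any gene, 3 of the 4 were upstream, at 117 bp for gw, 53 bp for the AGO1 peak and 102 bp for the r2d2 peak, and the drosha peak was 25 bp downstream of the rnh1 start. By that measure, over all 2053 optimal promoter summits the median was 98 bp upstream of the nearest start, with quartiles at 172 and 30 bp upstream, and 1698 lay upstream against 353 downstream. Measured from the gene's own annotated 5′-most start instead, the 4 upstream of an own start became 2, drosha and r2d2. For the gw and AGO1 peaks the nearest own start is an internal one. Of the genes with only a weaker pooled peak, loqs and pasha had it upstream, and Dcr-2 and AGO2 downstream.

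**Figure D3:**
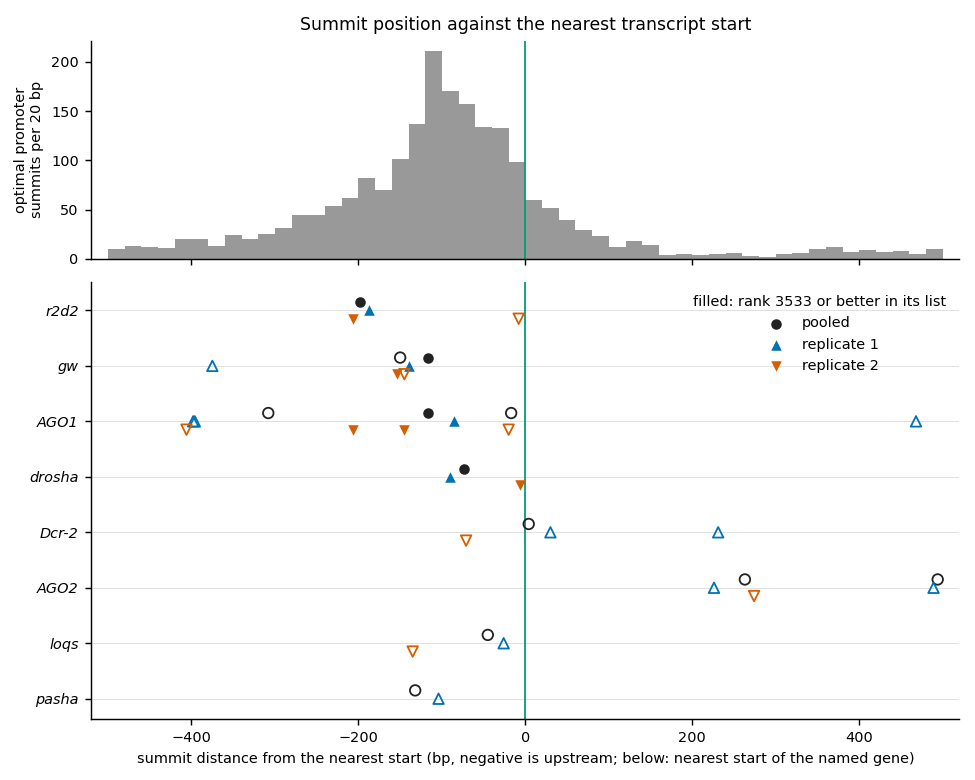
Top, distance in bp of 2053 optimal promoter summits from the nearest transcript start of any gene (negative is upstream), in bins of 20 bp; bottom, distance of summits from the nearest start of the named gene itself, for the 8 genes with one, in the pooled list and each replicate, filled where the rank is 3533 or better in its list. Filled symbols appear only for r2d2, gw, AGO1 and drosha, all upstream of the gene's own start, and within 500 bp AGO2 has summits only downstream.

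The relaxed pooled list crowded gw and AGO1. Their windows held 19 and 18 of the 71 pooled summits, while the other 7 genes shared 34. Per kb of window, gw had 0.881 pooled summits, which was more than 97.9% of all protein-coding genes, and AGO1 had 0.729, more than 94.0%. Dcr-1 had the fewest, at 0.117 per kb, more than 29.0% of all genes. The median over the 9 genes was 0.347 and over all genes 0.275. Replicate 1 placed 25 summits in each of the gw and AGO1 windows, and replicate 2 placed 19 in each. The gw value stands on a crowded chromosome: the median of the 80 protein-coding genes on chromosome 4 was 0.604 per kb, against 0.257 to 0.312 on the other arms. Within chromosome 4, gw exceeded 92.5% of genes.

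**Figure D4:**
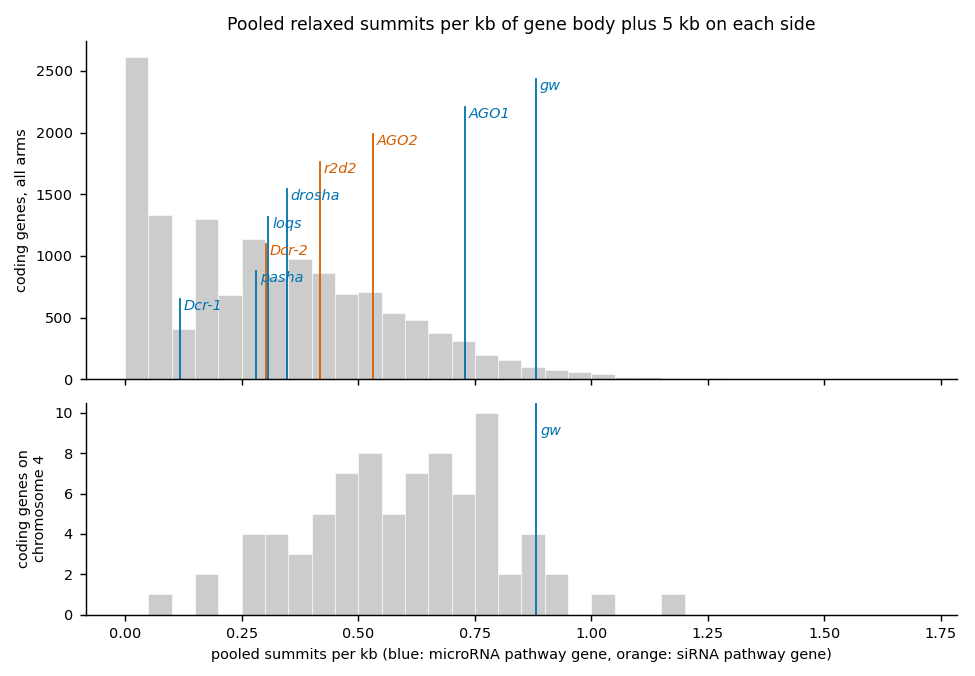
Number of protein-coding genes by pooled summits per kb of the gene body and 5 kb on each side, for all arms (top) and for chromosome 4 (bottom), with the 9 genes as vertical lines. Lines for gw (0.881) and AGO1 (0.729) lie in the right tail, Dcr-1 (0.117) lies on the left, and gw is also right of most genes of chromosome 4.

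Many of these relaxed summits were weak, and the list is labelled as holding background as well as peaks. A pooled summit was called found in a replicate where that list had a summit within 100 bp. This held in both replicates for 11 of 11 optimal summits in the 9 windows, against 95.7% of all optimal summits. It held for 25 of the 60 others (41.7%), against 29.9% of all other pooled summits, and 2 had a match in neither replicate. The pooled list was made from both replicates, and the optimal set is its top, cut after the test of their agreement. These shares thus describe the matching and not independent recurrence. By class, 32 of the 71 lay at promoters of any gene (45.1%, against 33.1% of all pooled summits) and 14 in introns (19.7% against 40.8%). Coding exons held 11 (15.5% against 4.17%) and 3′ UTRs held 9 (12.7% against 5.30%). All 20 summits in coding exons and 3′ UTRs ranked between 10632 and 29840, far outside the optimal set, and 7 of them had a match in both replicates. The sequence classes available in these windows differ from those of the genome, and their part in these shares was not tested.

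Sequence within 50 bp of the best own-start summit was searched on both strands for 7 promoter motifs. TATCGATA is the DNA replication-related element, GGTCACACT the core of Motif 1 and CAGCTG an E-box. GAGAGA is the letters read by the GAGA factor, CCAAT is the box of that name, TATAAA is the core promoter element bound by the basal machinery and CAGGTA is read by the early factor Zelda. Of the 8 genes with a peak, 3 had a match: r2d2 an E-box, loqs the Zelda letters and pasha CCAAT. The windows of gw, AGO1, drosha, Dcr-2 and AGO2 had none. Of the 4 genes with an optimal peak, r2d2 alone had a match, and the loqs and pasha peaks were outside the optimal set. By comparison, 45.7% of all optimal promoter windows, centred on the summit, held at least 1 of the 7. So did 49.0% of start windows, which have the same length but end at a protein-coding start and so lie upstream of it. The shares of single motifs at optimal promoters were 4.38% for the E-box, 1.85% for Zelda and 18.2% for CCAAT, against 7.64%, 2.24% and 18.5% at starts. These are letter matches, and no match says nothing about a factor. Base composition of the 4 optimal windows spread widely, from 27.7% G or C in gw and 36.6% in r2d2 to 48.5% in drosha and 56.4% in AGO1. The median was 33.7% over 2053 optimal promoter windows and 41.6% over 19253 start windows, so AGO1 and drosha lay above both medians and gw below both.

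Other genes of small RNA silencing were counted in the same way, from 2 lists. Of 31 cofactors of the microRNA and siRNA pathways, 14 had an optimal summit at a start (45.2%) and 29 had a pooled one (93.5%), against 19.1% and 53.9% of all protein-coding genes. The deadenylase subunit gene PAN3 ranked 197 in the pooled list, with 171 in replicate 1 and 229 in replicate 2. Hsp83, which encodes the Hsp90 chaperone used in Argonaute loading, ranked 207, with 237 in replicate 1 and 191 in replicate 2. Both stood above r2d2, and the P-body gene tral ranked 496. They were followed by the cap-binding gene Cbp20 at rank 1356, the poly(A)-binding protein gene pAbp at 1706 and the decapping enzyme gene DCP2 at 1809. The peaks of tral, Cbp20 and DCP2 also lay at starts of other coding genes, sti, CG7218 and dbo in that order. Those of PAN3, Hsp83 and pAbp lay at no other gene's start. Of 33 genes of the piRNA pathway, which silences transposons mainly in the germline, 4 had an optimal summit at a start (12.1%) and 18 had a pooled one (54.5%), against the same 19.1% and 53.9% of all genes. These 4 were papi at rank 380, tapas at 1836, egg at 2654 and mino at 3475. The difference between the lists was not tested. In these shares a peak may count for several genes, and they were not recounted with the nearest start only.

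The genes whose peaks ranked most like those of the 4 bound genes, by the sum of absolute log2 rank differences over the pooled list and both replicates, were searched among 2554 candidates. They were goe and Adck5 for AGO1, CG7379 and drn for gw, and Pgant1 and CG9775 for drosha. For r2d2 they were CG7071 and JMJD6, which share 1 peak at rank 313 in the pooled list, 436 in replicate 1 and 263 in replicate 2. None of these is among the 9 genes or in the lists of cofactors and piRNA genes.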

How the data were processed

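Peaks were analysed for 2 replicates of 1 group. Per the deposited file notes, each replicate's alignment and their pool were compared with 1 control file on dm6, giving relaxed narrowPeak lists and an optimal set filtered by irreproducible discovery rate (IDR). Which aligner, peak caller and IDR threshold were used is not given in the sources used here. Ranks within a list come from the deposited score, whose scale is unknown, and no score was set against one of another list. Among pooled peaks the deposited −log10 q value ties at its highest value for 2929 peaks and was not used for ranking. The files give no read counts, so depth is unknown. A summit is the deposited offset added to the peak start. Genes came from Ensembl release 115 (BDGP6.54), without transposable elements, and bases from RefSeq Release 6. Placement was tested on simulated data. Python 3.11.15, pandas 2.3.3, numpy 2.4.6 and matplotlib 3.10.9 were used. The 9 genes, the lists and the named genes were chosen with earlier results of these data known. Named genes are the 9, those sharing an optimal peak at their starts, the 2 nearest in rank to each bound gene, and up to 6 bound genes per list by score. Neighbours of other window peaks were named after their values were seen. Symbols of 4 cofactors and 1 piRNA gene were updated to current ones.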

Additional observations from a re-analysis of the deposited data

How the results depend on the processing

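Over 15 results and 57 alternatives, 44 values stayed within 1.5 times the reported one and 13 did not. Counting each summit for the nearest start only left 1 bound gene in place of 4. The other windows and start sets gave 4, the upper 1766 optimal peaks gave 3, and either replicate alone gave 4. The gene bodies alone left 2 genes with an optimal summit in place of 7, flanks of 2 and 10 kb gave 6 and 9, and single replicates gave 6 to 7. The 71 pooled summits became 24 without a flank, 43 with 2 kb, 117 with 10 kb and 42 in the 15000 best peaks, and 68 to 88 in single replicates. Taking the annotated gene start left 2 upstream summits in place of 4. Motif matches were found in 5 genes, in place of 3, with 100 bp on each side and in 6 over the whole peak, by the wider windows themselves. The median best rank was 3985 over 8 genes, 3916 in replicate 1 over the same 8, and 3485 in replicate 2 over 7, since pasha has no such peak there. The ranks of AGO1, AGO2, loqs and pasha that moved are given above. No paired analysis was possible because there is 1 group. Depth is unknown, so an absent peak, as at Dcr-1, cannot be told from one too weak to be listed.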
